A study of Canis lupus familiaris with 6 samples.

Results

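The tumor necrosis factor (TNF) ligand and receptor superfamily was followed in the blood of dogs fed CPP-Se, a chelate of selenium with phosphopeptides of casein. Members were the genes whose symbol starts with TNFSF (ligands) or TNFRSF (receptors), together with TNF, LTA, LTB, LTBR, FAS, FASLG, CD27, CD40, CD40LG and CD70. This rule gave 37 of the 31512 genes in the table, 17 ligands and 20 receptors. Averaged over the 6 dogs, 24 of the 37 (11 ligands and 13 receptors) reached 1 FPKM, as did 9847 genes in all. FPKM counts fragments on a gene scaled by its length and by the library size, so levels given in FPKM can be set side by side between genes.

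Whole blood was taken on day 30 of feeding from Beagle dogs aged 1.5 years, in a study of 12 dogs. The control group was given 30 g of an unsupplemented snack after its maintenance food, and the CPP-Se group the same amount of that snack with 0.03% CPP-Se. RNA of 3 dogs per group was sequenced, 1 library per dog. The dogs are numbered 1 to 3 in each group by the names of their libraries, and the labels do not say that equal numbers mark pairs.

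Most ligands of this family are trimers anchored in the membrane of the cell that makes them, and they act on receptors of neighbouring cells. Receptors with a death domain can start apoptosis, whereas others recruit TRAF adaptors and lead to activation of NF-kappa B. In blood, lymphocytes carry many of the costimulatory ligands and receptors, and neutrophils and monocytes are rich in the receptors of TNF.

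The reads on genes, as recovered from the FPKM, numbered 6598173 to 8067034 per dog. CPP-Se dog 2 stood apart from the others, since 8 hemoglobin genes held 36.6% of its reads against 48.7% to 55.9% elsewhere, and the library size implied by its FPKM was 1.65 times its reads on genes. Red cell markers were abundant in every dog, and markers of B cells, T cells, monocytes, neutrophils and platelets were all present, as the label whole blood implies. Summed leukocyte markers lay apart in the 2 groups. Of 35 leukocyte markers tested singly, 0 passed the limma test described with the members, 22 had an unadjusted p under 0.05 and 11 were called by the negative binomial model, where 16% and 4.55% of all genes tested did so. The summed FPKM of 6 monocyte markers was 593 to 827 in the control dogs, against 258 to 351 in the CPP-Se dogs, and that of 7 neutrophil markers was 2240 to 2997 and 1736 to 2227. For 8 B cell markers the sum was 278 to 398 in the control dogs, against 426 to 467 in the CPP-Se dogs, and for 7 markers of NK and cytotoxic cells it was 8.17 to 15.8 and 24.2 to 39.0. The sum of all 9 T cell markers went the other way, from 987 to 1330 in the control dogs to 809 to 948 in the CPP-Se dogs. CD4, which neutrophils of dogs also carry, held 74.3% to 94.4% of it, and the other 8 markers summed to 73.9 to 138 and 152 to 212. Platelet markers (2 genes) summed to 489 to 1126 and 367 to 1386 FPKM and red cell markers (6 genes) to 1336 to 3472 and 2259 to 3303 FPKM, with overlap. In bulk blood, fewer cells of a type and less RNA per cell cannot be told apart.

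Across the superfamily, the lymphocyte ligands LTB and FASLG and the receptors TNFRSF25, CD27 and TNFRSF18 were higher in the CPP-Se dogs. The receptors TNFRSF1B, TNFRSF1A, LTBR and FAS and the ligand TNFSF9 were lower. These 10 members did not overlap between the groups on the deposited FPKM, whereas after scaling to a common sum 7 members did not overlap. FASLG reached a mean of 1 FPKM in the CPP-Se group alone. None of these differences passed the adjusted test in the main comparison. By limma on log2(FPKM + 1), with Benjamini-Hochberg adjustment over 9847 genes, 0 of the 24 tested members had an adjusted p under 0.05 with a fold change of at least 1.5, where 0.0305% of all genes tested did. An unadjusted p under 0.05 was found for 13 members, 7 higher and 6 lower with CPP-Se, where 16% of all genes tested had one. A negative binomial model fitted to the recovered reads called 4 members, where it called 4.55% of all genes. LTB and TNFRSF25 were called as higher (1.79% of all genes) and LTBR and TNFRSF1A as lower (2.76%). Limma-voom called 0 members and, with sample quality weights, 3 (LTB, TNFRSF25 and LTBR), where these fits called 0.0102% and 1.58% of all genes.

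The 3 values of one group lay outside the range of the other for 10 of the 24 tested members, 5 higher and 5 lower with CPP-Se, and for 23% of all genes tested. Some members were tested only because 1 group was high: FASLG and CD70 reached a mean of 1 FPKM in the CPP-Se group alone, and TNFSF13B and TNFRSF17 in the control group alone. Of the other 20 members, 9 did not overlap between the groups, where 22.5% of the genes with 1 FPKM or more in both groups did not, and 11 had an unadjusted p under 0.05, against 15.3%. The median log2 fold change was 0.19 over these 20 members, as over the 24, and -0.00433 over all genes tested. That median joins differences of both signs, since 14 members were higher and 10 lower. With a filter at a mean of 5 FPKM, which left 12 members, the members' median was -0.34.

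**Figure D1:**
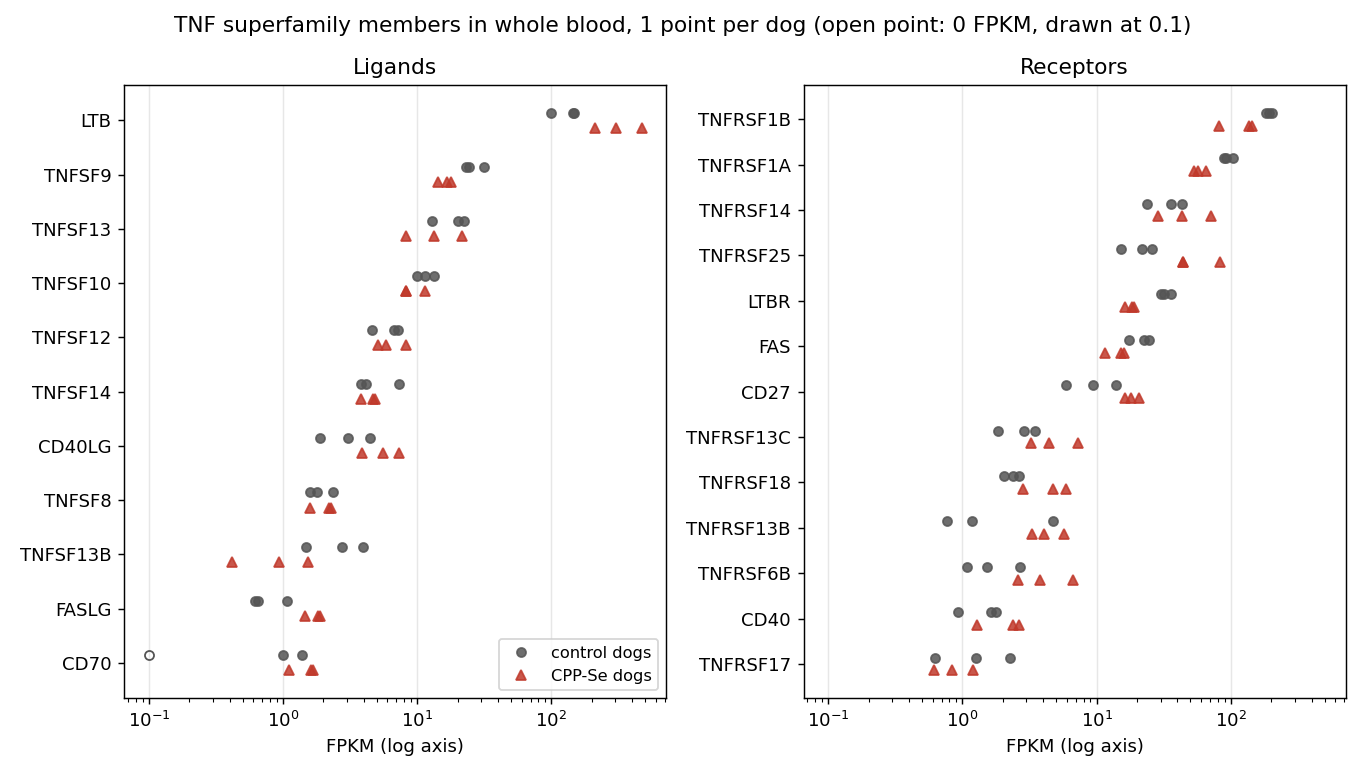
Level of each tested member in FPKM on a log axis, ligands on the left and receptors on the right, with 1 point per dog (grey circles, control; red triangles, CPP-Se; the open point is a dog at 0 FPKM). LTB, at 99.6 FPKM or more in each dog, is far above the other ligands, and TNFRSF1B and TNFRSF1A lead the receptors in the control dogs.

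LTB, or lymphotoxin beta, anchors lymphotoxin alpha in the lymphocyte membrane. Its FPKM was 147, 145 and 99.6 in control dogs 1, 2 and 3, and 470, 305 and 210 in CPP-Se dogs 1, 2 and 3. Every CPP-Se dog was above every control dog, although the CPP-Se dogs also spread over a wider range, with an SD of 131 around a mean of 328 against 26.8 around 131. The log2 fold change was 1.27 (SE 0.32, 95% interval 0.52 to 2.02, adjusted p = 0.171 by limma and 0.00573 by the negative binomial model), and it ranged from 0.97 to 1.55 when each dog was left out in turn. LTB had the highest mean level of the family and ranked 213 among the 9847 genes tested. Within the ligands it held 56.8% to 65.4% of the summed level in the control dogs, against 78.1% to 87.1% in the CPP-Se dogs. The sum over all ligands was 176 to 229 FPKM in the control dogs, against 270 to 539 FPKM in the CPP-Se dogs.

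TNF and LTA, the other ligands of the TNF locus, lie beside LTB on chromosome 12 within 1071192 to 1081153 of the genome of Ensembl release 100. Neither reached a mean of 1 FPKM. TNF, the cytokine that names the family, had 5, 1 and 4 reads in control dogs 1, 2 and 3 and 3, 20 and 10 reads in CPP-Se dogs 1, 2 and 3. These reads were looked at outside the rule for named genes, and the depth does not allow a comparison. On the FPKM scale, the 3 neighbouring ligands lay far apart in mean level over the 6 dogs, at 229.5 for LTB, 0.920 for TNF and 0.534 for LTA.

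The receptors of TNF and lymphotoxin were lower in the CPP-Se dogs in 3 of 3 cases, with a median log2 fold change of -0.71. TNFRSF1B (chromosome 2, 84141911 to 84157191), the TNF receptor found mainly on leukocytes, was at 194, 203 and 182 FPKM in control dogs 1, 2 and 3 and at 145, 136 and 82.0 FPKM in the CPP-Se dogs. CPP-Se dog 3 was the lowest, and the groups did not overlap (log2 fold change -0.71, SE 0.25, adjusted p = 0.253 by limma). Without that dog the log2 fold change was -0.46. TNFRSF1A, the TNF receptor with a death domain, was at 89.6, 92.0 and 104 FPKM in the control dogs and at 56.6, 65.3 and 52.8 FPKM in the CPP-Se dogs. Both groups were tight around 95.3 ± 7.93 and 58.2 ± 6.40 FPKM (SD, n = 3), and the log2 fold change was -0.70 (SE 0.18, 95% interval -1.12 to -0.28, adjusted p = 0.171 by limma and 0.0207 by the negative binomial model). Since both receptors were lower to a like degree, their ratio, TNFRSF1B to TNFRSF1A, was 2.17, 2.20 and 1.74 in the control dogs, against 2.56, 2.08 and 1.55 in the CPP-Se dogs, with overlap. The 2 genes held 67.4% to 70.9% of the summed receptor FPKM in the control dogs, against 46.5% to 55.5% in the CPP-Se dogs.

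LTBR, the receptor of the LTA-LTB complex and of TNFSF14, is carried by myeloid and stromal cells and is absent from most lymphocytes. It was at 36.1, 32.1 and 30.1 FPKM in control dogs 1, 2 and 3 and at 18.5, 19.2 and 16.2 FPKM in CPP-Se dogs 1, 2 and 3. The groups lay well apart at 32.8 ± 3.07 and 18.0 ± 1.52 FPKM (SD, n = 3), and LTBR had the lowest adjusted p of the family by limma and by the negative binomial model. Its log2 fold change was -0.83 (SE 0.17, 95% interval -1.23 to -0.44), with an adjusted p of 0.138 by limma, 0.0445 by limma-voom with sample quality weights and 0.00140 by the negative binomial model. CD27, LTBR and TNFRSF1A are neighbours on chromosome 27, between 38534707 and 38700282, with 61664 and 32973 bases between them. CD27 was higher and the other two lower in the CPP-Se dogs, so the 3 receptor genes of this locus did not share a direction.

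**Figure D2:**
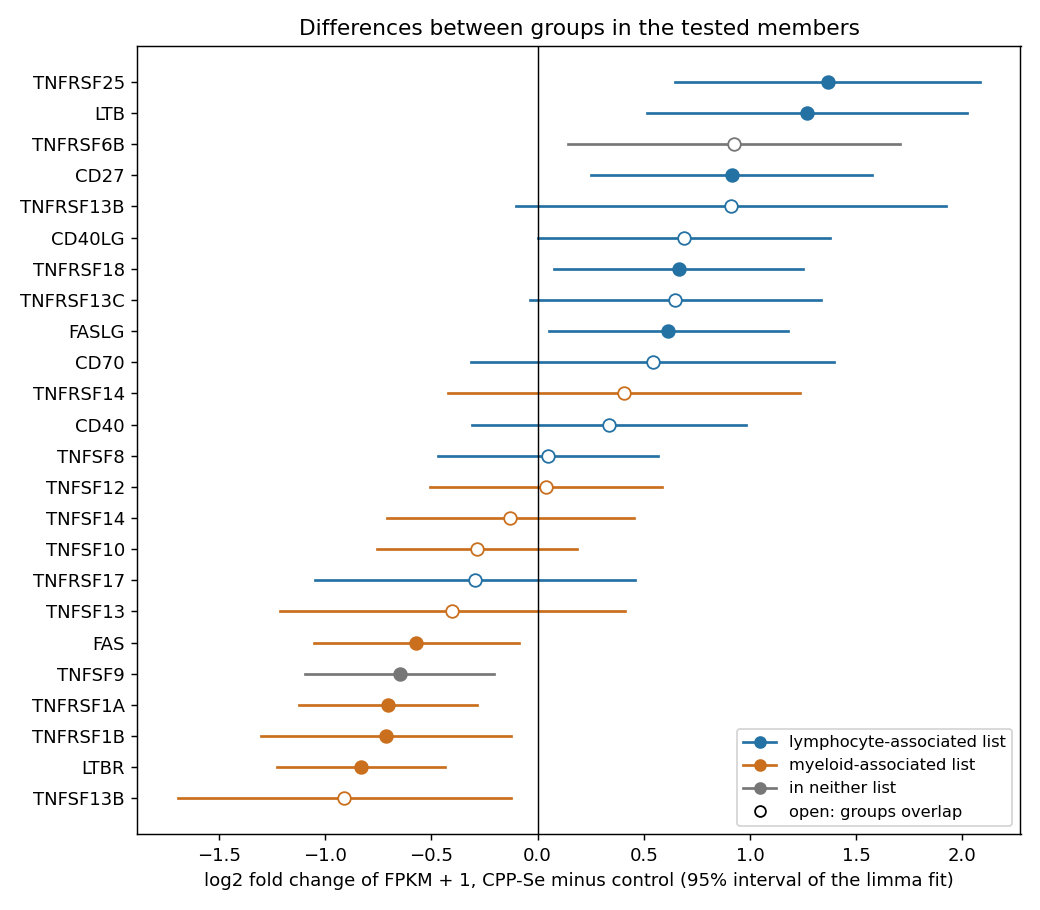
Log2 fold change of FPKM + 1, CPP-Se minus control, for the 24 tested members, with the 95% interval of the limma fit (n = 3 dogs per group; colours, lists of lymphocyte- and myeloid-associated members; filled points, groups without overlap). The values run from 1.37 for TNFRSF25 down to -0.91 for TNFSF13B, with the lymphocyte-associated members mostly at the top and the myeloid-associated ones mostly at the bottom.

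The tested costimulatory receptors were higher in the CPP-Se dogs in 4 of 4 cases, with a median log2 fold change of 0.54, and 2 of them did not overlap between the groups, where 10.4% of all genes tested were higher without overlap. CD27, which T cells and memory B cells carry, was at 9.42, 13.9 and 5.91 FPKM in control dogs 1, 2 and 3 and at 20.7, 16.3 and 18.1 FPKM in the CPP-Se dogs. All CPP-Se dogs were above the highest control dog (log2 fold change 0.91, SE 0.28, 95% interval 0.25 to 1.57, adjusted p = 0.207 by limma). TNFRSF18, or GITR, which marks regulatory and activated T cells, was lower in level at 2.40, 2.05 and 2.64 FPKM in the control dogs, against 4.73, 2.82 and 5.88 FPKM in the CPP-Se dogs. CPP-Se dog 2 was close to the control range (log2 fold change 0.66, SE 0.25, adjusted p = 0.270 by limma and 0.443 by limma-voom). These TNFRSF18 values rest on 20, 16 and 26 reads in the control dogs and on 37, 46 and 44 reads in the CPP-Se dogs. TNFRSF18 shares its position with ISG15 on the other strand and CD27 overlaps TAPBPL and VAMP1, and 7 of the 24 tested members overlap another gene in this way. How shared reads were counted is not given in the sources used here.

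The other costimulatory receptors overlapped between the groups. TNFRSF14, or HVEM, a receptor of TNFSF14 that T cells, B cells and myeloid cells carry, was at 35.8, 43.2 and 23.8 FPKM in the control dogs and at 71.0, 43.4 and 28.5 FPKM in the CPP-Se dogs (log2 fold change 0.41, SE 0.36, adjusted p = 0.616 by limma). That value rests largely on 2 dogs, since it was 0.08 without CPP-Se dog 1 and 0.17 without control dog 3, and it was 0.72 without CPP-Se dog 3. CD40, the B cell and monocyte receptor of T cell help, was at 1.63, 0.921 and 1.79 FPKM in the control dogs and at 2.65, 2.40 and 1.28 FPKM in the CPP-Se dogs (0.34, adjusted p = 0.597 by limma), with 0.17 to 0.55 when each dog was left out. Its ligand CD40LG, made by activated helper T cells, was at 1.90, 3.05 and 4.44 FPKM in the control dogs and at 5.57, 3.89 and 7.33 FPKM in the CPP-Se dogs (0.69, SE 0.30, adjusted p = 0.310 by limma), or 0.46 without control dog 1. Only CPP-Se dog 2 lay within the control range for CD40LG, whereas for CD40 it was CPP-Se dog 3.

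TNFSF9, or 4-1BB ligand, a costimulatory ligand of antigen-presenting cells, was the ligand that was lower without overlap. Its FPKM was 24.3, 23.0 and 31.4 in control dogs 1, 2 and 3 and 14.4, 16.7 and 17.7 in CPP-Se dogs 1, 2 and 3 (log2 fold change -0.65, SE 0.19, adjusted p = 0.192 by limma). Its receptor TNFRSF9, a marker of activated T cells, had 0 reads in all 6 dogs. TNFSF14 and CD70 are the next members on chromosome 20, with 31914 bases between them and 37561 bases between CD70 and TNFSF9. TNFSF14, or LIGHT, was at 7.36, 3.80 and 4.13 FPKM in the control dogs and at 3.78, 4.64 and 4.84 FPKM in the CPP-Se dogs (-0.13, adjusted p = 0.846 by limma), and its sign turned with the scaling to a common sum and without control dog 1. CD70, the ligand of CD27, rested on 7, 0 and 6 reads in the control dogs, against 8, 16 and 5 reads in the CPP-Se dogs, which is too few to place the groups. TNFSF8, the CD30 ligand, had a log2 fold change of 0.05 (adjusted p = 0.938 by limma), a sign that turned under other settings.

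Among receptors with a death domain, TNFRSF25 was higher and FAS and TNFRSF1A were lower in the CPP-Se dogs. TNFRSF25, or DR3, a receptor of T cells for TNFSF15 (chromosome 5, 60316688 to 60320897), was at 21.8, 25.9 and 15.3 FPKM in control dogs 1, 2 and 3 and at 83.7, 43.7 and 44.0 FPKM in the CPP-Se dogs. The lowest CPP-Se dog was well above the highest control dog, and CPP-Se dog 1 was highest, as it was for LTB. The log2 fold change of 1.37 (SE 0.31, 95% interval 0.65 to 2.08) was the largest of the tested members on log2(FPKM + 1), though not by the other models, with an adjusted p of 0.144 by limma and 0.00287 by the negative binomial model, and it ranged from 1.06 to 1.53 when each dog was left out. TNFSF15, its ligand, had 0 reads in all 6 dogs.

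FAS, the receptor that FASLG engages to kill cells, was at 22.7, 17.6 and 24.7 FPKM in the control dogs and at 11.5, 15.3 and 16.0 FPKM in the CPP-Se dogs. The groups were close but did not overlap (log2 fold change -0.57, SE 0.21, adjusted p = 0.261 by limma). FASLG, made by cytotoxic T cells and NK cells, went the other way from a low level, with 0.617, 1.07 and 0.655 FPKM in the control dogs, against 1.89, 1.46 and 1.81 FPKM in the CPP-Se dogs (0.62, SE 0.24, adjusted p = 0.278 by limma). FASLG reached a mean of 1 FPKM in the CPP-Se group alone, and so passed the filter through the group where it was higher. These FASLG values rest on 8, 13 and 10 reads and on 23, 37 and 21 reads. The pseudocount of 1 shrinks such a low gene: the log2 fold change was 1.07 with a pseudocount of 0.1 and 1.14 by the negative binomial model. TNFRSF6B, a soluble decoy that binds FASLG and TNFSF14, was at 1.09, 1.52 and 2.70 FPKM in the control dogs and at 6.70, 3.82 and 2.62 FPKM in the CPP-Se dogs (0.93, SE 0.34, adjusted p = 0.258 by limma; 1.66 by limma-voom with sample quality weights). CPP-Se dog 3 lay within the control range, and the gene lies inside ZGPAT and overlaps a row described as RTEL1, both on the same strand. The death ligands TNFSF10, or TRAIL, and TNFSF12, or TWEAK, had log2 fold changes of -0.28 (adjusted p = 0.538; -0.13 after scaling to a common sum) and 0.04 (adjusted p = 0.954) by limma, the latter with a sign that turned without control dog 1 or CPP-Se dog 1.

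In the B cell survival system, 2 of 2 tested ligands were lower and 2 of 3 receptors higher, all with overlap between the groups. Among these, only the ligand TNFSF13B had an unadjusted p under 0.05 by limma, as 16% of all genes tested did. TNFSF13B and TNFRSF17 reached a mean of 1 FPKM in the control group alone, so opposed directions of ligands and receptors are not established. TNFSF13B, or BAFF, which myeloid cells make, averaged 2.73 ± 1.23 FPKM in the control dogs, against 0.961 ± 0.559 FPKM in the CPP-Se dogs (SD, n = 3; log2 fold change -0.91, SE 0.34, adjusted p = 0.264 by limma). With a pseudocount of 0.1 its log2 fold change was -1.46, and by the negative binomial model it was -1.50. TNFSF13, or APRIL, averaged 18.4 ± 4.93 and 14.3 ± 6.68 FPKM (-0.40, adjusted p = 0.616 by limma), a difference that dropped to -0.08 without CPP-Se dog 3 and was -0.72 without CPP-Se dog 1. The BAFF receptor TNFRSF13C of B cells averaged 2.72 ± 0.818 FPKM in the control dogs, against 4.96 ± 2.06 FPKM in the CPP-Se dogs (0.65, adjusted p = 0.338 by limma; 0.39 without CPP-Se dog 2), and TNFRSF13B, or TACI, averaged 2.23 ± 2.19 and 4.37 ± 1.24 FPKM (0.91, adjusted p = 0.361 by limma; 0.58 without control dog 2 and 1.43 without control dog 3). TNFRSF17, the plasma cell receptor BCMA, had a log2 fold change of -0.29 (adjusted p = 0.701 by limma; -0.04 without control dog 3). Mean reads per dog ranged from 17.3 for TNFRSF17 to 179 for TNFRSF13C.

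The remaining 13 members were below 1 FPKM and were not tested. Reads were found for 9 of them, TNF, LTA, TNFRSF8, TNFSF11, TNFRSF4, TNFRSF12A, TNFRSF11A, TNFRSF19 and TNFRSF11B, with at most 21 reads in any dog. The other 4, TNFRSF9, TNFSF4, TNFSF18 and TNFSF15, had 0 reads in all dogs, which allows up to 3 reads per library, for counting error only. Members with at least 1 read numbered 29 to 33 in the control dogs, against 30 to 33 in the CPP-Se dogs, so the ranges overlapped.

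Members were also counted in lists named for lymphocytes and for myeloid cells, over those with a mean of at least 1 FPKM in both groups. The lists are rough, since cells of the other class carry some members, such as TNFRSF14 in the myeloid list and CD40 in the lymphocyte list. The lymphocyte-associated list held LTB, CD40LG, TNFSF8, CD27, CD40, TNFRSF18, TNFRSF25, TNFRSF13B and TNFRSF13C, and the myeloid-associated list held TNFSF10, TNFSF12, TNFSF13, TNFSF14, TNFRSF1A, TNFRSF1B, LTBR, FAS and TNFRSF14. Of 9 lymphocyte-associated members, 9 were higher in the CPP-Se dogs, with a median log2 fold change of 0.69. The sign of TNFSF8 turned under other settings, as did those of TNFSF12 and TNFSF14 in the myeloid-associated list. Among the 9 lymphocyte-associated members, 5 had an unadjusted p under 0.05 (6.37% of all genes at 1 FPKM in both groups had one and were higher) and 4 did not overlap (9.89%). Of 9 myeloid-associated members, 7 were lower and 2 were higher, with a median of -0.40. Among them, 4 were lower with an unadjusted p under 0.05 (8.92%) and 4 were lower without overlap (12.6%). The mean log2(FPKM + 1) of these lymphocyte-associated members was 2.74 to 2.76 in the control dogs, against 3.38 to 3.66 in the CPP-Se dogs. For the myeloid-associated members it was 4.57 to 4.76 and 4.09 to 4.48. Neither mean overlapped between the groups. Most cell markers had the same directions: 8 of 8 B cell markers and 8 of 8 T cell markers without CD4 were higher, with medians of 0.64 and 0.74, and 6 of 6 monocyte markers and 6 of 7 neutrophil markers were lower, with medians of -0.93 and -0.80. The exceptions in these lists were CD4 and MMP9, a protease of neutrophil granules. CD4 was lower without overlap, at 1019, 849 and 1256 FPKM in control dogs 1, 2 and 3 and at 627, 796 and 613 FPKM in the CPP-Se dogs. MMP9 was at 96.3, 68.3 and 86.1 FPKM in control dogs 1, 2 and 3 and at 729, 23.7 and 540 FPKM in the CPP-Se dogs.

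To set members beside these markers, FPKM was divided by the summed markers of a cell type in the same dog, a choice made after seeing the data. CD4 was left out of the T cell markers, since it held most of their sum. Per T cell markers, CD27 was at 0.0959, 0.101 and 0.0800 in the control dogs and at 0.114, 0.107 and 0.0854 in the CPP-Se dogs, a log2 difference of 0.14 with overlap. LTB was at 1.49, 1.06 and 1.35 and at 2.58, 2.01 and 0.991, and TNFRSF25 was at 0.222, 0.188 and 0.207 and at 0.461, 0.287 and 0.207, where CPP-Se dogs 1 and 2 were above every control dog in both ratios. CPP-Se dog 3 was below every control dog for LTB and within their range for TNFRSF25. Differences of CD40LG and TNFRSF18 per T cell markers were 0.02 and 0.01 on the log2 scale, and those of FASLG were 0.32 per T cell markers and -0.12 per NK and cytotoxic markers, both with overlap. Per B cell markers, LTB was higher in every CPP-Se dog than in any control dog, with a log2 difference of 0.89. That separation rested on CD79A, which held 69.2% to 85.8% of the B cell sum. Without CD79A the groups overlapped, with a difference of 0.45.

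Whether the TNF and lymphotoxin receptors differed per myeloid markers depended on single markers. Per monocyte markers, TNFRSF1A, TNFRSF1B and LTBR were higher in the CPP-Se group by 0.50, 0.49 and 0.34 on the log2 scale, without overlap for TNFRSF1B and LTBR. LYZ, the lysozyme gene, held 64.7% to 75.0% of that sum. Without LYZ the differences were 0.23, 0.22 and 0.08, and the groups overlapped for all 3 receptors. Per neutrophil markers, the differences were -0.34, -0.34 and -0.49, without overlap for LTBR. MMP9 held 32.7% and 31.1% of that sum in CPP-Se dogs 1 and 3 and at most 3.81% in the other dogs. Without MMP9 the differences were -0.01, -0.02 and -0.17, again with overlap for all 3 receptors. These ratios are descriptions with no test, and the part that cell proportions have in the FPKM differences was not tested.

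**Figure D3:**
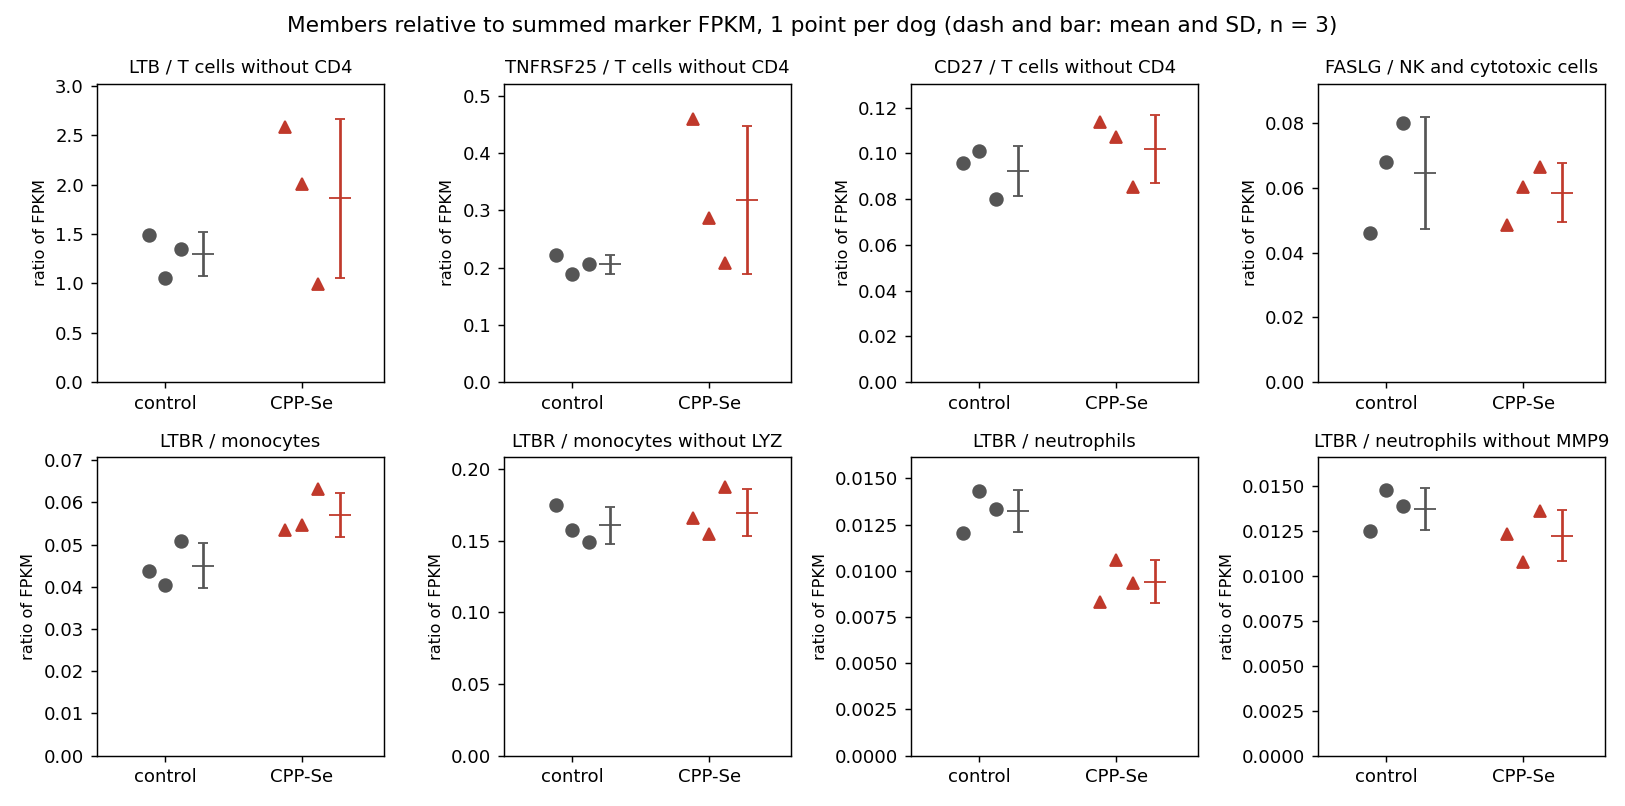
FPKM of a member divided by the summed FPKM of marker genes of 1 cell type in the same dog, with 1 point per dog in the order of the dog numbers (grey circles, control; red triangles, CPP-Se) and the mean and SD of 3 dogs. LTB, TNFRSF25 and CD27 per T cell markers and FASLG per NK and cytotoxic markers overlap between the groups, and LTBR separates them per monocyte and per neutrophil markers but overlaps without LYZ or without MMP9.

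Known partners of the family were also set against each other as a ratio of FPKM in the same dog, a description made after the levels had been seen. Their separation restates the levels of the single genes, so that no count over pairs is given. LTB to LTBR was 4.06, 4.54 and 3.31 in the control dogs, against 25.4, 15.9 and 13.0 in the CPP-Se dogs, a log2 difference of 2.14. FASLG to FAS was 0.0272, 0.0611 and 0.0266 in the control dogs, against 0.164, 0.0958 and 0.113 in the CPP-Se dogs, a difference of 1.78. In these pairs the ligand was higher and the receptor lower, as shown above for each gene alone. TNFSF14 to LTBR was 0.204, 0.118 and 0.137 in the control dogs, against 0.205, 0.242 and 0.298 in the CPP-Se dogs (0.72), with CPP-Se dog 1 next to control dog 1. TNFSF13B to TNFRSF13C was lower, with 1.14, 0.962 and 0.807 in the control dogs, against 0.347, 0.128 and 0.130, a difference of -2.42. FASLG and TNFSF13B are among the members that reached 1 FPKM in 1 group alone. CD40LG to CD40 and TNFSF14 to TNFRSF14 overlapped between the groups, with differences of 0.34 and -0.56. A ratio of RNA levels in whole blood joins different cells and is no measure of binding.

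**Figure D4:**
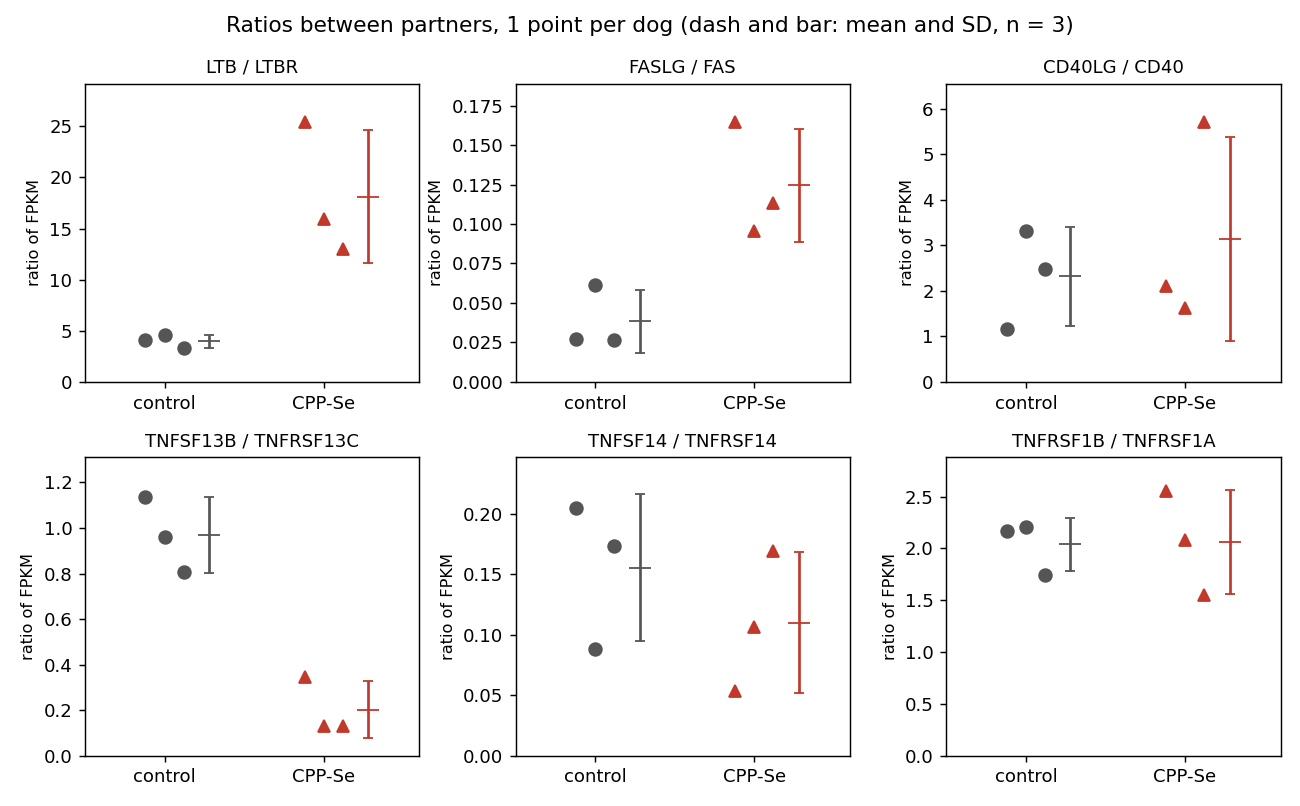
Ratio of FPKM between partners of the family in the same dog, with 1 point per dog in the order of the dog numbers (grey circles, control; red triangles, CPP-Se) and the mean and SD of 3 dogs. LTB to LTBR and FASLG to FAS are higher and TNFSF13B to TNFRSF13C is lower in every CPP-Se dog, whereas the other 3 ratios drawn overlap.

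Genes that act with or downstream of the receptors were followed through a fixed list. Of 47 listed genes, 41 were tested (the others were under 1 FPKM or not analysed here), 13 higher and 28 lower, with a median log2 fold change of -0.27. By limma 0 of the 41 passed, 3 higher and 5 lower had an unadjusted p under 0.05, where 6.87% and 9.1% of all genes did, and the negative binomial model called 1, where it called 4.55% of all genes. That gene was NFKBIA, the inhibitor that NF-kappa B itself induces, at 57.1, 36.9 and 43.8 FPKM in control dogs 1, 2 and 3 and 20.8, 26.0 and 26.2 FPKM in the CPP-Se dogs (log2 fold change -0.87, adjusted p = 0.162 by limma and 0.00888 by the negative binomial model). Feedback inhibitors of NF-kappa B were lower in 6 of 6 cases. The sheddases and their partner, which cut TNF and its receptors from the membrane, were lower in 3 of 3. Over all genes tested, 4963 of 9847 were lower. Of these inhibitors and sheddases, only NFKBIA had an unadjusted p under 0.05 by limma.

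Adaptors of the TRAF group did not share a direction, with 8 of 14 tested adaptors and ubiquitin ligases higher and 6 lower. TRAF4 was at 9.72, 6.13 and 2.96 FPKM in the control dogs and at 14.9, 13.1 and 17.5 FPKM in the CPP-Se dogs, without overlap (log2 fold change 1.26, adjusted p = 0.183 by limma). TANK, a TRAF-binding regulator of NF-kappa B, was lower without overlap at 6.31, 6.43 and 4.85 FPKM in the control dogs, against 3.05, 3.84 and 3.25 FPKM in the CPP-Se dogs (-0.64, adjusted p = 0.189 by limma). Kinases on the way to NF-kappa B and MAPK were lower in 7 of 10 cases and death signalling genes in 6 of 8.

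Leaving out CPP-Se dog 2, the library that stood apart, gave log2 fold changes of 1.28 for LTB, 1.52 for TNFRSF25, 0.99 for CD27, -0.88 for LTBR, -0.79 for TNFRSF1A and -0.82 for TNFRSF1B. Each kept the sign that it had with all 6 dogs.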

How the data were processed

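Whole blood RNA of 3 control and 3 CPP-Se dogs was enriched with oligo(dT), made into NEBNext Ultra libraries and sequenced on an Illumina NovaSeq. Per the study's methods and the submitters' processing notes, reads were filtered with fastp 0.19.7, aligned with HISAT2 2.0.5 (dog genome, Ensembl release 100) and counted with featureCounts 1.5.0-p3. The authors deposited FPKM, computed from read counts, gene length and a library size that already carries a scaling between dogs. The use of strand and the handling of shared reads are not given in the sources used here. Reads were recovered from FPKM, gene length and a library size estimated for each dog from the spacing of its values, and came out whole (within 0.1) for 100% of values.

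Genes averaging 1 FPKM or more were tested on log2(FPKM + 1) with limma 3.58.1 in R 4.3.3 (lmFit, eBayes with trend, two-sided, Benjamini-Hochberg), and called at an adjusted p under 0.05 with a 1.5-fold change or more. Values are FPKM and errors are SD over 3 dogs, or the SE of the fit. P-values rest on the spread between 3 dogs per group. Limma-voom, with and without sample quality weights, and a negative binomial model were run on the recovered reads. The methods were tested on simulated data. Python 3.11.15, numpy 2.4.6, pandas 2.3.3, scipy 1.17.1 and matplotlib 3.10.9 were used.

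Dogs were grouped by library names. The members and gene lists were chosen with earlier results of these data known, so that list counts are descriptions. Values per dog were given for members without overlap between the groups and their known partners, for TNF, FASLG, CD40, CD40LG, CD27, CD70, LTA, LTB and LTBR where tested, and for the 5 members of highest level. Of the other genes of the pathway, the 3 of largest change were named. All 37 symbols were found in RefSeq. The markers CD8B, NKG7, CD14, FPR1, PF4, GP9 and GP1BA and sequences were not analysed here. Alternatives were another pseudocount (0.1), other filters, 4 other scalings, eBayes without a trend, a replicate block, and each dog left out.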

Additional observations from a re-analysis of the deposited data

How the results depend on the processing

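With 3 dogs per group, the count of genes passing the thresholds depended strongly on the test. Against 3 of 9847 genes, it was 0 with a pseudocount of 0.1 and without a filter, 1 with a mean of at least 5 FPKM, 12 after scaling to a common sum, 1 with a replicate block, 1 by limma-voom, 156 with sample quality weights and 448 by the negative binomial model. It ranged from 0 to 14 with each dog left out, and was 14 without CPP-Se dog 2 and 0 without CPP-Se dog 3 or any 1 control dog. Members passing numbered 3 with sample quality weights, 4 by the negative binomial model and 0 in the other fits. Members without overlap, 10 on the deposited FPKM, numbered 7 with a common sum and 12 with a common upper quartile. With a common sum, the log2 fold changes of LTBR and TNFRSF1A were -0.68 and -0.55 (adjusted p = 0.588 and 0.696 by limma). Those of LTB and TNFRSF25 were 1.42 and 1.52 (adjusted p = 0.170 and 0.119 by limma). Members with an unadjusted p under 0.05, 13 in all dogs, numbered 8 with a mean of at least 5 FPKM, 7 with a common sum and 6 to 12 with each dog left out (6 without control dog 1, 8 without control dog 2 and 8 without CPP-Se dog 1). The members' median log2 fold change of 0.19 became -0.34 at a mean of at least 5 FPKM, where 12 members were tested, and 0.40 with sample quality weights. It was 0.071 without a filter, and 0.12 without CPP-Se dog 1 and 0.32 without CPP-Se dog 3, the lowest and highest with each dog left out. Scaling to a common sum moved the median of all genes to 0.13, and scaling to reads outside the hemoglobin genes, chosen after seeing the data, moved it to 0.10.

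Of 420 single-member values over 18 settings, 406 kept their direction and their side of the threshold, 7 passed it and 7 reversed. The log2 fold change of TNFSF12 ranged from -0.13 to 0.17 with each dog left out, that of TNFSF14 from -0.28 to 0.12, and that of TNFSF8 from -0.032 to 0.16. TNFSF14 was at 0.0061 with a common sum, and TNFSF8 at -0.085 with sample quality weights. The cause was not tested. Same-numbered dogs did not deviate together (correlations of -0.0900 to 0.0165, against -0.0783 to 0.112 for other numbers). With 3 dogs per group this cannot exclude a pairing, and the labels state none. The fit with the replicate block called 0 members. Depth limits the members under 50 mean reads.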

Other observations

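The table holds 8 further rows that are described as superfamily members without a symbol that the rule takes, 5 of them with no symbol at all. A mean of at least 1 FPKM was reached by 3. The row ENSCAFG00000002078, described as the death domain receptor TNFRSF21, was at 18.8, 15.4 and 26.7 FPKM in control dogs 1, 2 and 3 and at 19.8, 14.3 and 22.7 FPKM in the CPP-Se dogs (log2 fold change -0.08, adjusted p = 0.908 by limma). RELT, a receptor of lymphoid tissue, was at 5.21, 6.73 and 4.38 FPKM in the control dogs and at 12.8, 6.93 and 7.55 FPKM in the CPP-Se dogs, without overlap (0.62, adjusted p = 0.303 by limma). The row ENSCAFG00000046229 had a log2 fold change of 0.12 (adjusted p = 0.825 by limma).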
